A study of Mus musculus with 36 samples.

Results

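The comparison described here is the first 0.5 h after transcription was blocked in wild-type (WT) mouse macrophages, in 6 of the 36 libraries of the series. In the starting group (3 libraries) macrophages had received R837 for 3 h. In the second group (3 libraries) they had received R837 for 3 h and then actinomycin D (ActD) for 0.5 h. R837 is imiquimod, an agonist of the endosomal receptor TLR7, and ActD is a DNA intercalator that stops RNA polymerases. The cells were bone marrow-derived macrophages of C57BL/6N mice grown with the growth factor M-CSF, and both groups carried R837; no unstimulated cells were analysed here. The labels give 3 individual mice per group as independent replicates but no numbers that tie a mouse to its libraries in both groups. Libraries are therefore numbered 1 to 3 in the order of the records, and a number pairs nothing. The other libraries used below are WT at 1, 2 and 4 h of ActD, WT given R837 for 7 h without ActD, and N4bp1 knockout (KO) macrophages given R837 for 3 h with and without 0.5 h of ActD, at 3 libraries each.

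The level of an mRNA is set by its synthesis and its decay, and once synthesis is stopped the loss of a transcript follows its decay. In macrophages, many mRNAs of inflammatory mediators and of the feedback proteins that restrain them are short-lived. AU-rich elements in their 3′ untranslated regions (3′ UTRs), built from the pentamer ATTTA and often the nonamer TTATTTATT, are bound by tristetraprolin (encoded by Zfp36), which recruits the deadenylation machinery. The endonuclease Regnase-1 (encoded by Zc3h12a) cuts a further set of mRNAs at stem-loops. All values below are shares of a library's counts, so they tell how a transcript moved against the average transcript. A fall of total RNA under ActD would not show in them.

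The transcripts lost fastest were led by mRNAs whose 3′ UTRs hold AU-rich motifs. From these, 6 stretches of 30 bases are shown because they belong to the genes the results turn on. Of the 20 largest falls described below, 18 held ATTTA in the 3′ UTR but only 6 held TTATTTATT. The stretches shown thus hold the nonamer more often than the largest falls did. ATTTA by itself is common: the median 3′ UTR over all protein-coding genes tested held 1 copy. In genes lower 2-fold or more the median was 3 copies. The share of all genes holding ATTTA was not counted, so the 18 have no background share beside them. Each line is transcript sense, 5′ to 3′, from the GENCODE M21 transcripts (GRCm38, the build of the files). Capitals mark TTATTTATT where the 3′ UTR holds it and ATTTA where it does not. The Tnf stretch lies at chr17:35199677-35199706 on the minus strand, Zfp36 at chr7:28376959-28376988 (minus), Dusp1 at chr17:26506157-26506186 (minus), Cxcl2 at chr5:90905325-90905354 (plus), Ier3 at chr17:35822484-35822513 (plus) and Socs3 at chr11:117966136-117966165 (minus). All 6 are exonic.
Tnf: tatttaTTATTTATTTATTATTTATTTATT
Zfp36: ccctttatttatgacgactTTATTTATTgt
Dusp1: agctggtccTTATTTATTtaacacccccct
Cxcl2: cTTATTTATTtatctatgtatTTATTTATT
Ier3: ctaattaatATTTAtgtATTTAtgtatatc
Socs3: ttgcacatatATTTAtATTTAtactcagaa
The Tnf 3′ UTR of 764 bases held 5 overlapping copies of the nonamer and that of Cxcl2 (734 bases) held 4. Those of Ier3 (613 bases) and Socs3 (1474 bases) held none, with 5 and 4 copies of ATTTA.

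Of 13748 genes tested, 483 were lower after 0.5 h of ActD (3.51%) and 509 were higher (3.7%) at an adjusted p under 0.05. Falls were larger than rises: 108 genes were lower 2-fold or more (0.786%), 21 of them 4-fold and 6 of them 8-fold or more, whereas 19 were higher 2-fold or more (0.138%). The median over all genes was 0.006 on the log2 scale. Together the 483 genes went from 42846 to 26934 counts per 1e6 (CPM, scaled by the TMM factors), and the 108 genes from 11624 to 3573.9 CPM. The counts of falls and rises depended on scaling, and which scaling is right cannot be told from shares of a library. Scaled to ribosomal protein transcripts, 231 genes were lower and 60 higher (20.6% of the calls higher, against 51.3%), with 89 lower 2-fold or more. Both counts were smaller with that scaling, although the median over all genes was 0.019. Ribosomal protein transcripts made up 0.608 to 0.724% of the counts within the ActD group. The part of that spread in the smaller counts was not tested. The variance used in the test was estimated over all 36 libraries. Fitted to only the 6 libraries compared, 226 genes were lower and 42 higher, with 89 lower 2-fold or more. Of all pairs of libraries within a group, libraries 1 and 3 of the ActD group differed most (chi-square of the counts 45.6 per gene). Counts also turned on single libraries: without library 3 of the ActD group 694 genes were lower and 1170 higher, without library 2 of that group 325 and 292, and without its library 1 399 and 226. Without library 1 or 3 of the 3 h group, 257 and 238 genes were higher. Library 2 of the ActD group also held raised granule transcripts, given with the rises. The count of genes lower 2-fold or more held between 93 and 116 when each library was left out in turn.

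**Figure D1:**
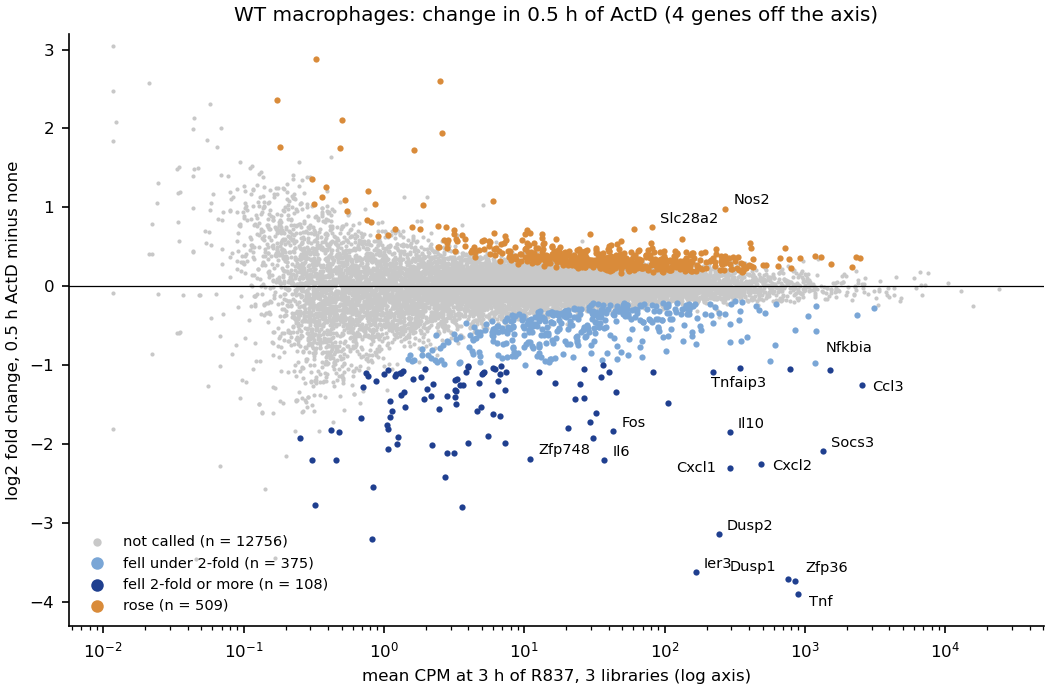
Log2 fold change in 0.5 h of ActD (vertical) against the mean CPM at 3 h of R837 (horizontal, log axis) for the genes tested in WT; dark blue, 108 genes lower 2-fold or more; light blue, 375 other falls; orange, 509 rises; grey, not called. Well-expressed genes fell by up to 3.89 log2 units, while Nos2 at 0.99 was the largest rise among genes above 100 CPM; 4 genes lie off the axis and genes at 0 CPM at 3 h are not drawn.

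Of the 108, 48 had a mean of at least 5 CPM at 3 h and 60 lay below it. The 20 largest falls among genes with at least 5 CPM and with no overlap between the libraries of the groups are described first. Over all genes, groups without overlap were seen for 9.27% in the lower direction. The largest fall was in Tnf, which encodes the cytokine TNF. Its transcript stood at 894, 907 and 886 CPM before ActD and at 57.6, 61.8 and 61.8 CPM after it. Only 6.74% was left (log2 -3.89 ± 0.06 SE, adjusted p = 1.26e-35), and the groups were far apart. If decay was exponential from the moment ActD was added, this equals an apparent half-life of 7.71 min. How long ActD took to act was not measured.

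The next 4 falls by size were in Zfp36, Dusp1, Ier3 and Dusp2. Zfp36 fell from 846, 921 and 798 CPM to 77.7, 58.9 and 57.8 CPM (7.58% left, log2 -3.73 ± 0.11). Dusp1, encoding a phosphatase that inactivates p38 and JNK, fell from 792, 752 and 720 CPM to 60.0, 55.6 and 57.8 CPM (7.66% left). An annotated Dusp1 transcript shares exonic bases with Ergic1 on the opposite strand, and the strand setting of the counting is not given in the sources used here, so part of the Dusp1 count may belong to Ergic1. Ier3, an immediate early gene that modulates survival signalling, fell from 168, 166 and 166 CPM to 13.5, 13.6 and 13.5 CPM (8.12% left). Dusp2, encoding a nuclear phosphatase of ERK and p38, fell from 256, 244 and 230 CPM to 29.0, 25.3 and 28.7 CPM (11.4% left). In all 4 the spread within a group was small beside the fall, and apparent half-lives were between 8.06 and 9.56 min.

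**Figure D2:**
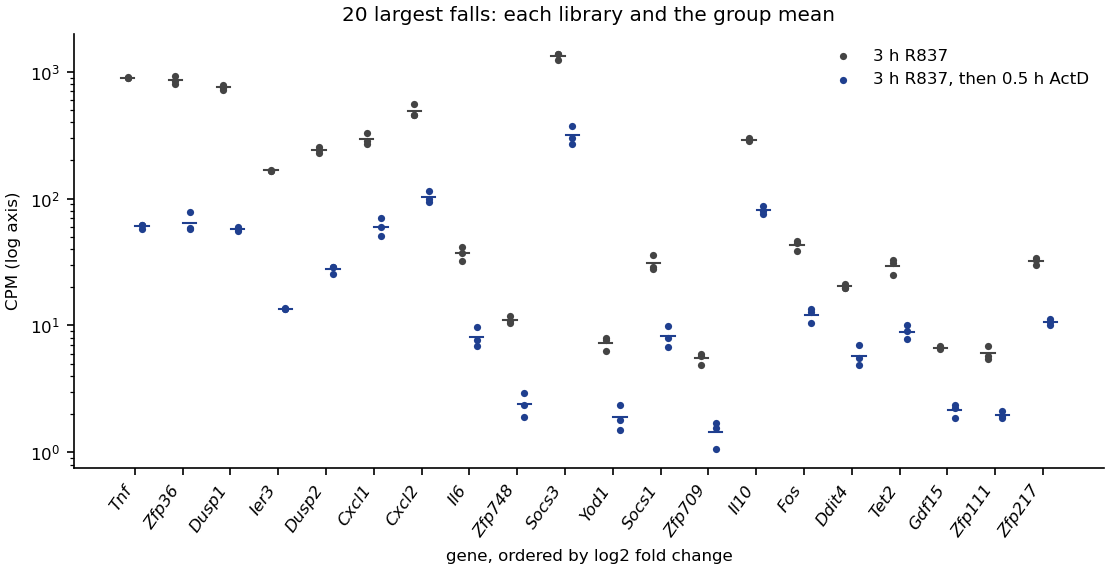
CPM (log axis) of each library for the 20 largest falls, ordered by fold change; grey points, 3 h of R837; blue points, 3 h of R837 and 0.5 h of ActD; bars, means of 3 libraries. The groups do not overlap in any of the 20, as the choice of genes required, from Tnf (6.74% left) to Zfp217 (32.8% left).

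The counts in the lists below stand against 3.51% lower, 0.786% lower 2-fold or more and 3.7% higher over all genes tested. The lists were chosen with earlier results of these data known, so their shares are no test of the lists. Among the SOCS family, whose members terminate JAK-STAT signalling, 3 of 8 tested fell (37.5%) and all 3 by 2-fold or more. Socs3, the main brake on IL-6 signalling in macrophages, fell from 1394, 1380 and 1240 CPM to 373, 303 and 271 CPM (23.6% left, log2 -2.08 ± 0.09). Socs1 fell from 35.9, 28.9 and 28.1 CPM to 9.97, 6.80 and 8.02 CPM (26.7% left). Cish, a STAT5 feedback gene, kept 48.3% (log2 -1.05 ± 0.15). The other 5 members lay between -0.24 (Socs4) and 0.12 (Socs2) and did not pass. A difference between members was not tested. In the same step in KO cells 5 of the 8 fell, against 4.34% of all genes tested. From 1 h to 2 h of ActD in WT 7 of the 8 fell, against 24% of all genes tested.

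Of 18 MAP kinase phosphatases and related feedback genes, 5 fell (27.8%, against 3.51% of all genes tested) and 0 rose, with a median of -0.42. After Dusp1 and Dusp2 came Gadd45b (-1.08), a stress adaptor of the MAP kinase cascade, then Trib1 and Dusp5 (both -0.84). Dusp4, Dusp6 and Dusp16, the last at 0.18, did not pass. Of 15 inducible kinase, RGS and small GTPase genes, 8 fell (53.3%) and 0 rose (median -0.62), all by less than 2-fold. Pim1, a survival kinase induced by cytokines, went from 294, 303 and 275 CPM to 197, 171 and 167 CPM (61.4% left), and Rhob, encoding an endosomal small GTPase, kept 56.5%.

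Cytokine transcripts fell in 11 of 21 tested (52.4%, against 3.51% of all genes tested) and rose in 1, with a median of -0.58. Of the falls, 8 were of 2-fold or more. Il6 went from 32.3, 37.5 and 41.6 CPM to 7.66, 6.91 and 9.75 CPM (21.8% left, log2 -2.20 ± 0.13). Il10, encoding the anti-inflammatory interleukin 10, went from 283, 292 and 299 CPM to 87.7, 76.1 and 79.8 CPM (27.9% left, log2 -1.84 ± 0.10). Both genes are also among the largest falls described first, which were chosen for groups without overlap. Tnfsf9, the 4-1BB ligand gene, kept 35.98%. Falls of 2-fold or more at means under 5 CPM were found for Il23a (-2.11, encoding the p19 subunit of IL-23), Lif (-1.67), Osm (-1.25) and Ifnb1 (-1.20, encoding interferon beta). Smaller falls were those of Il27 (-0.58), Tnfsf15 (-0.51, adjusted p = 0.0473) and Il1a (-0.45), which encodes interleukin 1 alpha.

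Of the 21 cytokine transcripts, 9 did not pass the test. Il1b, encoding interleukin 1 beta, stood at 1057, 1158 and 1329 CPM before and 1076, 1027 and 1116 CPM after ActD (90.8%, adjusted p = 0.357). Its groups overlapped. Il12b, the p40 subunit gene shared by IL-12 and IL-23, was at 182, 239 and 313 CPM and then at 165, 163 and 234 CPM (76.5%, adjusted p = 0.0826). Csf3, encoding G-CSF, was low in both groups (74.5% left, adjusted p = 0.105). The 1 cytokine transcript that rose was Il1rn (0.37), which encodes the interleukin 1 receptor antagonist.

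Chemokine transcripts fell in 6 of 16 (37.5%, against 3.51% of all genes tested) and rose in 2 (median -0.28). Cxcl1 and Cxcl2 encode neutrophil attractants that bind CXCR2. Cxcl1 went from 285, 269 and 332 CPM to 50.5, 59.3 and 70.3 CPM (20.3% left, log2 -2.29 ± 0.11). Cxcl2 went from 456, 460 and 554 CPM to 93.6, 99.7 and 116 CPM (21.0% left, log2 -2.25 ± 0.09). Cxcl1 and Cxcl2 are also among the 20 largest falls, chosen for groups without overlap. Cxcl3, a close homologue, fell by 0.45 log2 only. Ccl3, encoding a chemokine secreted by activated macrophages, had the largest loss in CPM of all genes ranked, from 2378, 2638 and 2608 CPM to 1203, 1005 and 995 CPM (42.0% left). Ccl2, the monocyte attractant, kept 48.2%. Ccl4, which neighbours Ccl3, was at -0.02 and Ccl5 at -0.25; neither passed. The interferon-induced Cxcl10 (0.37) and Cxcl11 (0.45) rose.

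Regnase-1 targets, a list that shares 8 members with the cytokine and chemokine lists, fell in 7 of 12 (58.3%, median -0.50), against 3.51% of all genes tested. They were Cxcl1, Cxcl2, Il6, Nfkbid (-0.77), Ptgs2 (-0.55, encoding cyclooxygenase 2), Cxcl3 and Nfkbiz (-0.37). Zc3h12a itself was at 0.20 and did not pass. Among 12 RNA-binding proteins of AU-rich and stem-loop elements, 5 fell (41.7%) and 1 rose. All 3 tristetraprolin family genes were among the falls: Zfp36, Zfp36l2 (-0.95) and Zfp36l1 (-0.90). Rc3h2, encoding Roquin-2, fell by 0.53 log2 and Hnrnpd, encoding AUF1, rose by 0.35. The deadenylation, decapping and exosome machinery was close to the background, with 1 of 33 members lower (3.03%, Tob2 at -0.35) and 1 higher (Edc4 at 0.30). Of the 14 alternative analyses, 7 did not call Tob2 and 8 did not call Edc4.

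Among 28 immediate early genes there were 15 falls (53.6%, against 3.51% of all genes tested) and 0 rises, with a median of -0.53. Beside Ier3, the largest fall was in Fos, from 46.3, 44.5 and 38.7 CPM to 13.4, 12.7 and 10.5 CPM (28.2% left). Ier5 kept 47.2%, and Myc, the growth regulator, kept 50.9% (15.6, 15.7 and 13.6 CPM, then 6.98, 10.4 and 5.45 CPM). Junb (-0.95), Ier2 (-0.92), Btg2 (-0.87) and Jun (-0.66) also fell. Egr1, a zinc-finger factor of the same class, was at 2.95, 3.25 and 2.44 CPM and then at 2.82, 3.30 and 2.51 CPM, with overlapping groups and 99.9% left. Klf2 (-0.61), Atf3 (0.07) and Nr4a1 (-0.11) did not pass.

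Among 19 NF-kB subunits and feedback regulators there were 5 falls (26.3%) and 2 rises (Rela at 0.38 and Tnip2 at 0.33), with a median of -0.006. Over all genes tested, 3.51% fell and 3.7% rose. The falls were in Tnfaip3 (-1.04), Nfkbia (-0.97), Rel (-0.49, the c-Rel subunit gene) and the nuclear IkB genes Nfkbid and Nfkbiz. Nfkbia encodes IkB alpha, and its transcript went from 1195, 1151 and 1196 CPM to 609, 596 and 607 CPM (51.2% left, log2 -0.97 ± 0.06). Tnfaip3, encoding the ubiquitin-editing protein A20, went from 778, 824 and 768 CPM to 419, 367 and 368 CPM (48.7% left). Nfkb1, Nfkb2, Relb, Birc3 and Traf1 lay between -0.01 and 0.14 and did not pass.

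Other signalling genes among the 20 largest falls were Yod1, a deubiquitinase (25.7% left), and Ddit4, an inhibitor of mTORC1 (28.4% left). Tet2, a 5-methylcytosine dioxygenase, went from 24.97, 31.2 and 32.7 CPM to 7.75, 9.02 and 10.1 CPM (30.2% left). Gdf15, a stress-induced cytokine of the TGF-beta superfamily, kept 32.1%. Smad7, which restrains TGF-beta signalling, fell by 2.01 ± 0.30 log2 at 2.06 to 2.43 CPM. Of 14 p53 targets 6 fell (42.9%, against 3.51% of all genes tested) and 1 rose. Mdm2, the p53 ubiquitin ligase, kept 79.0%, and Cdkn1a at -0.16 did not pass. Of 15 BCL-2 family genes 2 fell (13.3%), Pmaip1 (-0.47) and Bcl2l1 (-0.35), while the short-lived survival protein's gene Mcl1 was at -0.08. The call of Pmaip1 was lost in 8 of 14 alternatives (largest adjusted p = 0.294) and that of Bcl2l1 in 2.

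By number, the largest of the listed groups among the fast-lost transcripts was that of zinc-finger genes with Zfp symbols. They made up 2.23% of the genes tested and 29.6% of the 108 (32 genes). Of the 307 tested, 69 fell (22.5%), 1 rose (Zfp653 at 0.58) and the median was -0.34. The number follows in part from the length of the list. By share of members other lists were higher: 8 of 21 cytokines and 4 of 16 chemokines fell 2-fold or more, against 32 of 307 here. Most Zfp symbols stand for C2H2 zinc-finger proteins, many of them DNA-binding repressors with a KRAB domain; Zfp36 is a CCCH protein and is counted with them. Most were low: Zfp748 went from 10.8, 10.4 and 11.8 CPM to 1.88, 2.35 and 2.94 CPM (21.8% left). Zfp217, a corepressor-binding factor, went from 30.2, 34.1 and 33.0 CPM to 10.6, 10.1 and 11.2 CPM (32.8% left). Zfp715 kept 44.9%, Zfp709 26.2% and Zfp111 32.7%. Larger falls were estimated for Zfp599 (-3.20) and Zfp882 (-2.77), at means of 0.82 and 0.32 CPM. Many of these genes have close paralogues, and with single-end reads of 50 bases the counts of single members are uncertain.

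**Figure D3:**
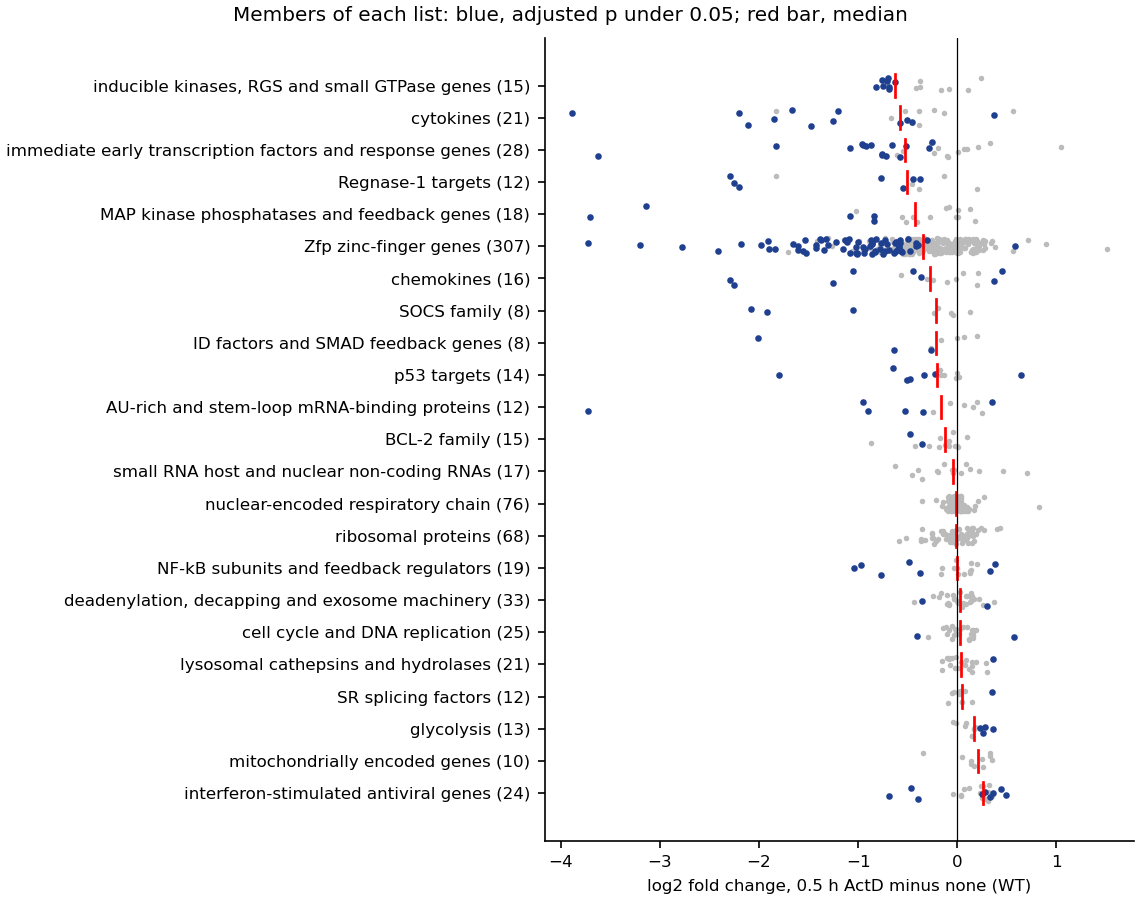
Log2 fold change in 0.5 h of ActD (horizontal) for the tested members of each gene list (vertical, number tested in brackets); blue, adjusted p under 0.05; grey, not past it; red bar, median; vertical spread within a list is random. Kinase, cytokine and immediate early lists have medians between -0.62 and -0.53, whereas respiratory chain and ribosomal lists lie at -0.02.

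Several lists of housekeeping machinery gave no calls or few. Ribosomal proteins (68 tested, median -0.02), the nuclear-encoded respiratory chain (76 tested, median -0.02) and mitochondrially encoded genes (10 tested, median 0.20) had 0 falls and 0 rises. Lysosomal hydrolases (1 of 21 higher), SR splicing factors (1 of 12 higher) and small RNA host genes (0 of 17) showed no fall. Cell cycle genes had 1 fall (Ccnd2 at -0.41) and 1 rise (Plk1 at 0.58) among 25, calls lost in 5 and 6 of 14 alternatives. Glycolysis genes differed from these lists in their count, with 4 of 13 higher by at most 0.36, against 3.7% of all genes tested. Of the 14 alternatives, 10 did not call Pfkl, 6 did not call Eno1 and 3 did not call Slc2a1. Interferon-stimulated genes rose in 6 of 24 (median 0.26), against 3.7% of all genes tested. They fell in 3 (12.5%, against 3.51%), the largest fall being that of Irf1 (-0.69), the interferon regulatory factor gene.

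The defining macrophage markers were abundant in all 6 libraries. Their sum was 34470 to 38240 CPM before and 32260 to 37850 CPM after ActD, with 0 of 16 lower and 2 higher, among them Csf1r (0.36, call lost in 5 of 14 alternatives), the M-CSF receptor gene. Neutrophil markers summed to 651.3 to 748.7 CPM before and 550.1 to 707.4 CPM after ActD, with S100a9 (304 CPM) and S100a8 (208 CPM at 3 h) the most abundant. B and plasma cell markers summed to 91.1 to 100.9 CPM before and 85.1 to 97.7 CPM after ActD, with 1 of 9 lower (Ms4a1 at -1.38). Dendritic cell markers had 2 of 6 lower (33.3%, against 3.51% of all genes tested), Zbtb46 at -1.37 (call lost in 6 of 14 alternatives) and Ccr7 at -0.44 (lost in 8). T and NK (4 tested), fibroblast (7), mast cell (5) and erythroid (1) markers had no call. Of the neutrophil markers 3 of 12 were higher, each through 1 library, as given with the rises below. In bulk RNA, fewer cells of a type and less RNA per cell cannot be told apart.

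The sequences and gene structures of the 108 differed from the rest in several ways. The nonamer TTATTTATT, searched on the transcript strand with overlaps counted, was in the 3′ UTR of 25.2% of them (26 of 103 with a 3′ UTR) and of 45% of those that fell 4-fold or more (9 of 20). It was in 19.0% of the genes that fell by less (69 of 364), 6.86% of genes not called, 5.42% of genes that rose and 7.34% of all tested. Since long 3′ UTRs hold more motifs, the shares were also read within a length class: among 3′ UTRs of at least 500 and under 1000 bases it was 11 of 27 fast-lost genes (40.7%) and 114 of 2375 tested (4.80%). Under 500 bases it was 0 of 11 (1.83% of those tested), from 1000 to under 2000 bases 8 of 32 (25%, against 7.36%) and from 2000 bases on 7 of 33 (21.2%, against 15.4%), so the excess was not found in each class. Zfp genes among the 108 held it in 9 of 32, other genes in 17 of 71. A Pumilio motif, TGTANATA, was in 22.3% of the 108, near the 24.9% of all tested, and in 42.0% of genes that fell under 2-fold, whose 3′ UTRs were longer (median 1866 against 1014 bases). These are counts of letters; binding was not measured.

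The fast-lost genes had fewer exons and a shorter genomic span, but not shorter transcripts (median 3245 bases, against 2977 over all tested). Their median transcript had 4 exons and spanned 12.3 kb of the genome, against 9 exons and 21.9 kb over all tested; without Zfp genes the span was 7.03 kb. Genes that rose had a median of 12 exons and 24.9 kb. Nearly all falls were in protein-coding genes (468 of 483), of which 4.01% fell. Of 203 lincRNA genes 5 fell and of 1252 processed pseudogenes 6. Per length, the fast-lost genes spanned a wide range of levels: the authors' RPKM at 3 h averaged 536 for Tnf, 514 for Socs3 and 733 for Nfkbia, but the median over the 108 was 1.14, against 3.94 over all tested.

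The later course separated the fast-lost genes. The levels at 1, 2 and 4 h are relative to the same 3 h libraries, so they are given side by side. One set went on falling: Dusp2 was at 11.4, 1.61, 0.39 and 0.16% of its 3 h level at 0.5, 1, 2 and 4 h. Socs3 was at 23.6, 4.03, 0.94 and 0.41%, Dusp1 at 7.66, 2.06, 1.03 and 0.57%, and Zfp217 at 32.8, 5.40, 2.34 and 1.44%. Tnf fell little after its first loss (6.74, 4.25, 3.35 and 2.50%). Of the 20 largest falls, 15 were under 10% at 4 h.

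The other 5 were higher at 4 h than at 1 h, and they are secreted factors: Cxcl1, Cxcl2, Il6, Il10 and Gdf15. Cxcl2 was at 21.0, 21.3, 33.0 and 59.1% and Il6 at 21.8, 17.2, 26.5 and 41.3%. Il10 was at 27.9, 19.4, 22.1 and 39.3%. The chemokine genes Ccl3 (42.0, 38.0, 44.5 and 77.6%) and Ccl2 (48.2, 41.7, 56.2 and 68.7%) had the same shape. A rise in CPM while synthesis is blocked can reflect loss of other transcripts, which shares of a library cannot separate.

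The step from 1 h to 2 h of ActD uses 6 other WT libraries. They may come from the same mice and were fitted in the same model, so the 2 steps are not fully independent. Over all genes 24% were lower and 16.7% higher in that step. Of the 20 largest falls of the first 0.5 h, 12 fell again and 3 rose, namely Cxcl2 (0.63 ± 0.09), Il6 (0.62) and Cxcl1 (0.39). In the same step the medians of ribosomal protein and nuclear-encoded respiratory chain transcripts were both 0.41, so Cxcl1 moved about as they did. Of the 108, 42 fell (38.9%) and 6 rose. Of the 375 genes that fell by less in the first 0.5 h, 267 fell (71.2%) and 17 rose. The median changes in this step were closer than these shares, at -0.60 for the 108 and -0.75 for the 375. The 108 also had lower levels at 3 h (median 3.90 CPM, against 22.8 CPM for the 375). The part of the level in the difference between the shares was not tested. Scaled to ribosomal protein transcripts, the same step gave 7954 genes lower and 81 higher, so the split of this step rests on the scaling.

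**Figure D4:**
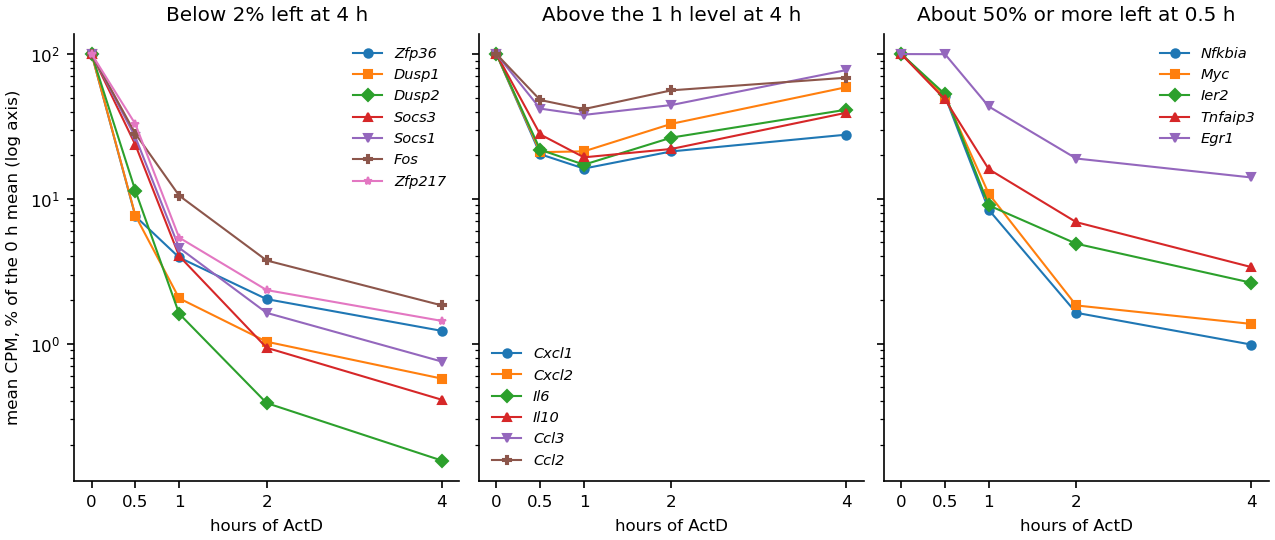
Mean CPM as % of the 3 h R837 mean (log axis) at 0, 0.5, 1, 2 and 4 h of ActD, 3 libraries a point; left, genes under 2% at 4 h; middle, genes whose 4 h level was above that at 1 h; right, genes with about 50% or more left at 0.5 h. Dusp2 reached 0.16% at 4 h while Cxcl2 returned to 59.1%, and Nfkbia went from 51.2% at 0.5 h to 8.399% at 1 h.

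Some transcripts with modest falls in the first 0.5 h were lost faster in the next. Nfkbia was at 51.2, 8.399, 1.63 and 0.98%, which gives apparent half-lives of 31.0 min in the first and 11.5 min in the second 0.5 h. Myc was at 50.9, 10.8, 1.84 and 1.37%, Ier2 at 52.8, 9.01, 4.90 and 2.63% and Ier5 at 47.2, 10.0, 1.99 and 0.77%. Egr1 was at 99.9, 43.4, 19.0 and 14.1%. For Socs3 the 2 intervals gave 14.4 and 11.8 min, and for Tnf 7.71 and 45.1 min. A ranking by the first 0.5 h thus places Nfkbia, Myc and Ier2 behind Cxcl1, of which more was left at 1 h (16.2%).

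Rises in 0.5 h of transcription block were mostly small, with a median of 0.34 over the 509 genes. Nos2, encoding the inducible nitric oxide synthase, was at 232, 306 and 271 CPM and then at 673, 490 and 441 CPM (log2 0.99 ± 0.11). Slc28a2, a nucleoside transporter gene, rose from 75.8, 85.3 and 82.2 CPM to 135, 134 and 142 CPM (0.75 ± 0.06). Pla2g4a, encoding cytosolic phospholipase A2, rose from 51.0, 60.8 and 69.8 CPM to 84.7, 96.3 and 121 CPM (0.73 ± 0.09). All 3 were still higher at 7 h of R837 without ActD, at 788, 734 and 339 CPM. At 4 h of ActD they stood at 203, 368 and 342% of the 3 h level. Gcnt2 (0.66) and Mtus1 (0.72) rose as well, Mtus1 only with library 2 of the ActD group (adjusted p = 0.0599 without it).

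Of the 19 genes higher 2-fold or more, 14 had a mean under 1 CPM at 3 h, and in 9 the ActD library 2 was over 3 times both others. Ctsg was at 2.14, 39.5 and 3.16 CPM after ActD, Elane at 3.55, 22.9 and 2.82 CPM and Prtn3 at 5.99, 25.2 and 6.00 CPM. These encode serine proteases of neutrophil primary granules. Car4 (0.34, 22.9 and 0.65 CPM) and Nedd4 (1.97, 12.1 and 1.73 CPM) followed the same library, as did Slpi (6.72, 14.8 and 6.93 CPM). Without that library none of these 6 passed and 7 genes were higher 2-fold or more, against 53 without library 3 of the ActD group and 12 without library 1 of the 3 h group. The other neutrophil markers, S100a8 (-0.21), S100a9 (-0.14) and Mpo (0.18) among them, did not pass. In the lower direction, 101 genes passed 2-fold without that library.

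In KO macrophages, the same 0.5 h step in 6 libraries not used for the WT step tested the same transcripts again, within the same model. N4bp1 encodes an RNase-domain protein that restrains cytokine output; its transcript was at 81.3 to 86.0 CPM in the KO libraries at 3 h and at 125 to 147 CPM in WT. The deletion is not given in the sources used here, and reads may come from exons outside it. Over all genes 4.34% were lower in KO (596) and 3.11% higher (427). Without library 3 of the KO ActD group these counts were 339 and 205, and without library 3 of KO at 3 h 210 were higher. Of the 108 genes, 90 fell in KO (83.3%), 0 rose and 105 had values below 0, with a median of -1.29. Of the 375 smaller falls 277 fell in KO and 0 rose, and of the 509 rises 241 rose and 0 fell. All 20 largest falls fell in KO. Genes called lower in both numbered 367, which is 76.0% of the WT and 61.6% of the KO calls.

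For the genes lost fastest, similar shares were left in both genotypes. Tnf was at 1746, 1700 and 1740 CPM in KO before and at 106, 108 and 111 CPM after ActD, which is 6.27% left against 6.74% in WT (difference in log2 change, KO minus WT, -0.10 ± 0.08, adjusted p = 1). Zfp36 kept 7.65% in KO and 7.58% in WT. Cxcl2 kept 26.7% and 21.0% (difference 0.35 ± 0.13, adjusted p = 1), and Il6 25.9% and 21.8% (0.25 ± 0.17, adjusted p = 1). Among the 20 largest falls the widest gap was in Zfp111, with 58.4% left in KO and 32.7% in WT (0.83 ± 0.26, adjusted p = 1). Across the 108 genes Pearson's r between the genotypes was 0.763, across 8783 genes of at least 5 CPM it was 0.850, and across all 13748 genes tested, low ones included, it was 0.403; these points share gene length and base composition and are not independent replicates.

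**Figure D5:**
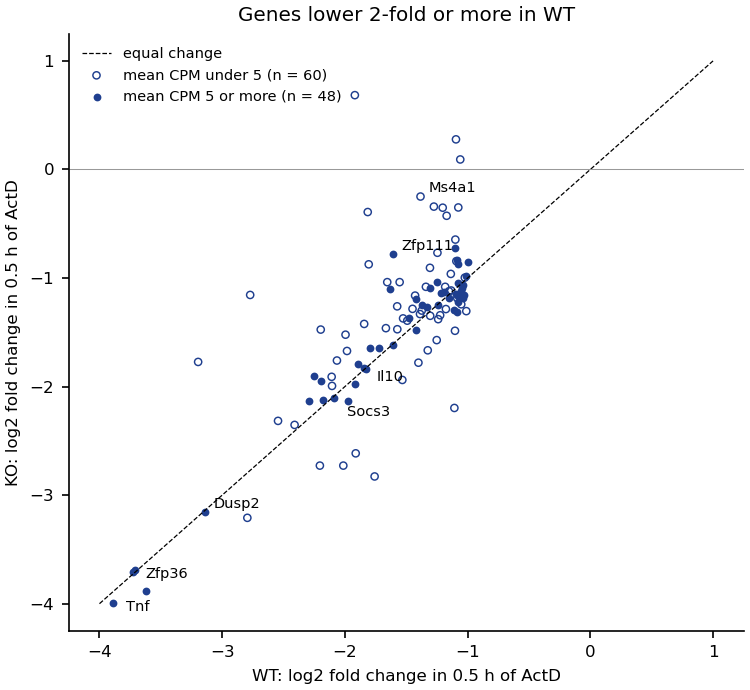
Log2 fold change in 0.5 h of ActD in KO (vertical) against WT (horizontal) for the 108 genes lower 2-fold or more in WT; filled, mean of at least 5 CPM at 3 h in WT (48 genes); open, below it (60 genes); dashed line, equal change. All but 3 genes lie below 0 in KO, and Tnf, Zfp36 and Dusp2 lie close to the line.

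The test of the difference itself called 3 of 13748 genes (0.0218%), all with a lower change in KO and 0 with a higher one, and none of them one of the 108. At an unadjusted p under 0.05 there were 450, which is below the share of 0.05 of all genes that would be reached with no difference. DESeq2 called 0. The 3 genes (Car4, Ctsg and Rab44) were high in single libraries, as given in the closing section. A difference in decay between the genotypes that is smaller than the spread of these libraries would not have been detected.

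At the edge of the 2-fold class, Zfp607a (-1.01) and Mylip (-1.001) lay just inside it, and Zfp87 (-0.999) and Zbtb39 (-0.98) just outside.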

How the data were processed

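RNA-seq libraries (total RNA, TruSeq kit v2, single-end reads of 50 bases, per the labels' protocols) were aligned with GSNAP to GRCm38, per the submitters' processing notes. Which program counted reads, on which annotation release and with which strand setting is not given in the sources used here. Per gene and library the authors deposited a raw count, an RPKM and a gene width; tests used the deposited counts, and the authors' RPKM was used only to compare levels between genes. Counts summed to 21.6 to 35.0 M in the 6 libraries and 20.3 to 46.1 M over all 36. Of 52636 gene identifiers, 52403 were named from GENCODE M21.

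One edgeR 4.0.16 quasi-likelihood model (TMM, filterByExpr, R 4.3.3) was fitted to all 36 libraries in 12 groups, and adjusted p-values in the text are its Benjamini-Hochberg values over 13748 genes at a threshold of 0.05. The biological coefficient of variation was 7.48%. No 2 libraries of a group agreed within sampling noise. One mouse may have given libraries at several times; the model treated all libraries as independent. The model was tested on simulated data. Motifs were counted in the 3′ UTR of 1 GENCODE M21 transcript a gene, taking transcripts with a 3′ UTR and of the basic and principal sets first.

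Genes named were a fixed set of 16, the 20 largest falls, 8 largest rises and 10 largest CPM losses (adjusted p under 0.05, at least 5 CPM in the higher group, no overlap of libraries, no clone names), and the 3 members of each of 31 lists with the smallest p. Further list members are named with their values. The comparison, members and lists were chosen with earlier results of these data known. Alternatives were RLE and ribosomal protein scaling, DESeq2 1.42.0, no filter, CPM of 1 in 3 libraries, adjusted p under 0.01, only the groups compared, removal of the length trend (loess), and leaving out each library.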

Additional observations from a re-analysis of the deposited data

Results flagged for a closer look

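The change in 0.5 h of ActD differed between the genotypes by the interaction test for 3 genes, each high in library 2 of the WT ActD group and in library 1 of KO at 3 h. Car4, a carbonic anhydrase gene, differed in log2 change, KO minus WT, by -11.07 (adjusted p = 0.0178). It was at 0.34, 22.9 and 0.65 CPM in WT after ActD and at 8.68, 0.51 and 0.16 CPM in KO before it. For Ctsg, encoding cathepsin G, the difference was -4.20 (adjusted p = 0.0466), with 2.14, 39.5 and 3.16 CPM in WT after ActD and 23.7, 5.06 and 3.21 CPM in KO before it. Rab44, encoding a Rab GTPase, stood at -4.77 (adjusted p = 0.0466), with 0.43, 5.94 and 0.68 CPM and 4.48, 0.81 and 0.37 CPM in the same groups. Rab44 was named after its values were seen. With either of these 2 libraries left out 0 genes were called, and 0 were also called without each of 5 other libraries. The part of the 2 libraries in the result was not tested further.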

How the results depend on the processing

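No paired analysis was possible because the labels carry no replicate numbers. With each library left out in turn, WT genes lower ranged from 325 to 694, higher from 226 to 1170, lower 2-fold or more from 93 to 116 and higher 2-fold or more from 7 to 53. The same ranges were 339 to 563 lower and 205 to 349 higher in KO, 2762 to 3249 lower and 1790 to 2177 higher from 1 h to 2 h, and 0 to 13 lower and 0 higher for the genotype difference. Fitting only the groups compared, 226 WT genes were lower, 42 higher and 2 higher 2-fold or more, and 0 differed between genotypes. Ribosomal protein scaling gave 231 lower, 60 higher and 12 higher 2-fold or more in WT, 45 higher in KO, 7954 lower and 81 higher from 1 h to 2 h, and 0 for the genotypes. At an adjusted p under 0.01, 274 were lower, 198 higher and 8 higher 2-fold or more in WT, 360 lower and 180 higher in KO, and 0 differed. Without a filter, 35 were higher 2-fold or more and the genotypes differed in 24 (lower in KO) and 3 (higher). The genotype count was 0 with the stricter filter and DESeq2 and 1 without the length trend. The causes were not tested beyond fewer libraries or a stricter threshold. Near 0, Egr1 turned to -0.008 (DESeq2, no filter), -0.009 (RLE) and -0.019 (length). Leaving out single libraries, Egr1 ranged from -0.116 to 0.104, Prtn3 from -0.006 to 1.421, Klrb1c from -0.14 to 0.75, Ncr1 from -0.889 to 1.776, Col1a2 from -0.022 to 0.318 and Fcer1a from -0.897 to 0.218. The 20 largest falls kept direction and call in all 280 refits of these alternatives.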
